A study of Sus scrofa with 6 samples.

Results

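The genes described here encode signals of the inhibin, activin, bone morphogenetic protein (BMP) and transforming growth factor beta (TGFB) family, together with follistatin, a secreted protein that binds activin. They were taken by name from a table of gene values in porcine granulosa cells (GCs), and 7 of the 10 genes asked for were found, out of 17950 genes in all. The 7 are *INHA*, *FST*, *BMP4*, *BMP6*, *TGFB1*, *TGFB2* and *TGFB3*. The activin subunit genes *INHBA* and *INHBB* and the gene *BMP2* were not analysed here.

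GCs line the ovarian follicle and feed the oocyte. In these experiments, they came from the ovaries of pre-pubertal Landrace gilts and were grown in medium with serum. The pLVX-*RBP4* group was infected for 72 h with a lentivirus that carried porcine *RBP4*, which encodes a carrier of retinol in blood, and the marker ZsGreen. The CTRL group was infected for the same time with the vector that carried ZsGreen alone, so both groups had seen virus. Each group had 3 libraries from independent repetitions, and no sorting of infected cells is described in the sources used here. The table holds 1 value per gene and group, in FPKM (fragment counts divided by transcript length and by library size), made by the authors from the 3 libraries. The spread between libraries is therefore unknown, no difference below has an error or a test, and every value is the authors' value for a group.

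Ligands of this family are secreted as dimers and are cut from larger precursors. Inhibin is an alpha subunit, the product of *INHA*, joined to a beta subunit, while activin is a dimer of beta subunits. Activin and TGFB act through receptors that phosphorylate SMAD2 and SMAD3, and BMPs act through receptors that phosphorylate SMAD1, SMAD5 and SMAD9. In the ovary, inhibin from GCs restrains the release of follicle-stimulating hormone (FSH) by the pituitary, and activins and BMPs act locally on the follicle.

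The label of the groups was checked on *RBP4*, which had 1.10 FPKM in CTRL GCs and 92.3 FPKM in pLVX-*RBP4* GCs. Of 12 marker genes of GCs, 7 were found, and all 7 were above 1 FPKM in both groups, with sums of 825 and 812 FPKM. Of these markers, 6 had a lower and 1 a higher value in pLVX-*RBP4* GCs. Among all genes with a mean of at least 1 FPKM, 50.2% were higher there. *CYP11A1*, the enzyme that starts steroid synthesis, was the highest of the 7 markers, at 673 and 669 FPKM. The markers *CYP19A1* and *FOXL2* were not analysed here. The highest gene of each group took 35.4% of the summed FPKM in CTRL GCs and 25.8% in pLVX-*RBP4* GCs. Other scalings were therefore tried. The number of reads behind the values is not part of the table. Among the 865 genes with a mean below 0.1 FPKM and a value above 0 in both groups, the ratio of the pLVX-*RBP4* to the CTRL value was most often between 0.7 and 0.8 (123 genes). The paper reports more mapped reads for every pLVX-*RBP4* library than for any CTRL library. The part of read number in this ratio was not tested.

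All 7 genes passed the filter of a mean of at least 1 FPKM over both groups, and their levels spanned more than a factor of 10. Because FPKM is scaled to transcript length, levels can be set side by side between genes. *TGFB1* and *BMP6* were the highest, *INHA*, *FST* and *BMP4* lay in the middle, and *TGFB2* and *TGFB3* were the lowest in both groups. The mean level of *BMP6* was above that of 86.5% of the 12382 genes that passed the filter, and that of *TGFB3* above 20.9%. The order of the 7 genes was the same in both groups except at the top, where *TGFB1* was first in CTRL GCs and *BMP6* first in pLVX-*RBP4* GCs. Whether neighbours in this order differ beyond their spread cannot be said from 1 value each. In bulk RNA, fewer cells of a kind and less RNA per cell cannot be told apart.

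**Figure D1:**
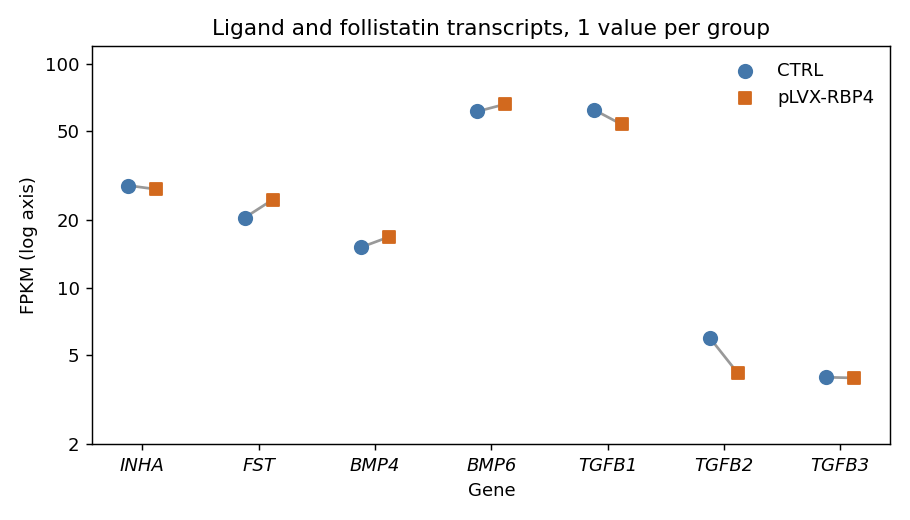
FPKM of the 7 genes (log axis) in CTRL GCs (circles) and the pLVX-*RBP4* group (squares), with 1 value per gene and group and no error. *TGFB1* and *BMP6* lie above 50 FPKM in both groups, and the steepest line is that of *TGFB2*, from 5.96 to 4.15 FPKM.

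The comparison of the pLVX-*RBP4* and CTRL groups asks which of these signals differ when *RBP4* is overexpressed. Differences are given on the scale of log2(FPKM + 1), as pLVX-*RBP4* minus CTRL, a scale that understates differences of weakly expressed genes. A gene was counted as apart when it differed by at least 0.32 on this scale, and fold limits below refer to the same scale. By this count 1 of the 7 genes was apart, *TGFB2*, which was lower in pLVX-*RBP4* GCs. Of all 12382 genes, 12.4% were apart in either direction, 5.31% lower and 7.11% higher, so 1 gene in 7 is close to the background. Among the 7 genes, 3 had a higher value in pLVX-*RBP4* GCs and 4 had a lower value, and across all genes 50.2% were higher. The median of the 7 differences was -0.0079, and that of all genes was 0.0014. At a limit of 2-fold, none of the 7 genes was apart, against 0.953% of all genes. The other scalings shift all genes nearly together, so genes near the limit can cross it. The median of all genes was 0.021 with a common median and 0.072 with a common sum. It was -0.078 with a common sum without the 20 highest genes. In that order, 12.9%, 15.1% and 13.9% of all genes were past the limit.

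**Figure D2:**
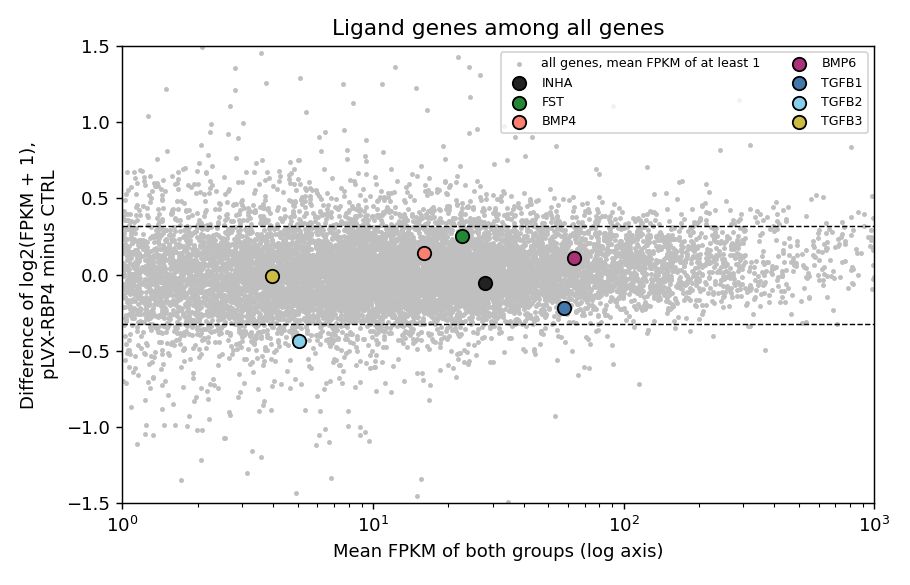
Difference of log2(FPKM + 1), pLVX-*RBP4* minus CTRL, against the mean FPKM of both groups (log axis), for genes with a mean of at least 1 FPKM (grey) and the 7 genes (coloured). Dashed lines mark a difference of 0.32 either way, 181 of the 12382 genes lie outside the axes, and *TGFB2* is the single coloured point beyond a line.

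Of the inhibin and activin genes, *INHA* (ENSSSCG00000020771) had 28.6 FPKM in CTRL GCs and 27.5 FPKM in pLVX-*RBP4* GCs. The difference was -0.05, and 78.4% of all genes were at least as far apart. The alpha subunit transcript was thus at nearly the same level in both groups, and its sign depended on the scaling, from -0.14 with a common sum without the 20 highest genes to 0.02 with a common sum of all genes.

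*FST* (ENSSSCG00000016892), the gene of follistatin, had 20.5 FPKM in CTRL GCs and 24.7 FPKM in pLVX-*RBP4* GCs, a ratio of 1.20. This was the largest positive difference of the 7 genes, at 0.26, which is under the limit of 0.32. Of all genes, 20.9% were at least as far apart. With a common sum in each group, where the median of all genes was 0.072, the difference of *FST* was 0.33 and passed the limit. The ratio of *INHA* to *FST* within a group, which no scaling of whole libraries can alter, was 1.39 in CTRL GCs and 1.11 in pLVX-*RBP4* GCs. The ratio of inhibin alpha to its beta subunits was not computed, since both beta subunit genes of the inhibins were not analysed here.

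Both BMP genes had somewhat higher values in pLVX-*RBP4* GCs. *BMP6* (ENSSSCG00000001027), whose protein is made by GCs and oocytes in several mammals, had 61.2 FPKM in CTRL GCs and 66.0 FPKM in pLVX-*RBP4* GCs. Its difference of 0.11 was matched or passed by 58.2% of all genes. *BMP4* (ENSSSCG00000005045), which in follicles is mostly known from theca cells, had 15.1 and 16.9 FPKM, a difference of 0.14, and 45.5% of all genes were at least as far apart. Both differences were therefore of a size common in this table. *BMP6* exceeded *BMP4* by a factor of 4.04 in CTRL GCs and 3.91 in pLVX-*RBP4* GCs, and it made up 80.2% and 79.6% of their sum.

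Of the 3 TGFB genes, *TGFB1* and *TGFB2* had lower values in pLVX-*RBP4* GCs, by unequal amounts, and *TGFB3* was nearly level. *TGFB2* (ENSSSCG00000010816) had 5.96 FPKM in CTRL GCs and 4.15 FPKM in pLVX-*RBP4* GCs, a difference of -0.44, or -0.52 as a log2 ratio with nothing added. The CTRL value was 1.44 times the pLVX-*RBP4* value, and 5.77% of all genes were at least as far apart. *TGFB2* was below -0.32 with each of the 4 other scalings and each of the 3 other added values tried, between -0.52 and -0.36. These settings rescale the same values, 1 per group, so they are no further evidence. It is weakly expressed, with a mean of 5.05 FPKM. Among the 2276 genes with a mean from 5 to below 10 FPKM, 11.8% were past the limit of 0.32, and among the 3204 genes from 1 to below 5 FPKM, 18.2% were.

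*TGFB1* (ENSSSCG00000003017), the most abundant isoform, had 62.4 FPKM in CTRL GCs and 53.6 FPKM in pLVX-*RBP4* GCs. The difference was -0.22, under the limit, and ranged from -0.30 to -0.14 over the other scalings. Of all genes, 27.7% were at least as far apart. *TGFB3* (ENSSSCG00000002385) had 3.98 and 3.95 FPKM, a difference of -0.0079, and 96.9% of all genes were at least as far apart. The sign of *TGFB3* changed with the scaling, from -0.08 to 0.05. *TGFB1*, like *TGFB2*, thus kept the same sign with each scaling tried, and *TGFB3* did not. The scalings shift all genes nearly together, so a kept sign follows from the size of the deposited difference and is no further evidence.

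The 3 isoforms made up the TGFB sum in unequal shares. *TGFB1* held 86.3% of the sum in CTRL GCs and 86.9% in pLVX-*RBP4* GCs. The share of *TGFB2* was 8.24% and 6.72%, and that of *TGFB3* 5.50% and 6.41%. *TGFB2* stood above *TGFB3* in CTRL GCs, and the ratio of both was 1.05 in pLVX-*RBP4* GCs, where the weaker isoforms were nearly level.

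Set against each other, the BMP sum was higher and the TGFB sum lower in pLVX-*RBP4* GCs. The sum of *BMP4* and *BMP6* was 76.4 FPKM in CTRL GCs and 82.8 FPKM in pLVX-*RBP4* GCs. The TGFB sum was 72.3 and 61.7 FPKM. The ratio of the BMP sum to the TGFB sum was 1.06 in CTRL GCs and 1.34 in pLVX-*RBP4* GCs, and a common scaling of all genes leaves this ratio as it is. The BMP sum lacks *BMP2*. *BMP6* and *TGFB1*, which fill most of the sums, were both under the limit, and 58.2% and 27.7% of all genes were at least as far apart. The sums and their ratio rest on 1 value per gene and group, were formed after the values were seen, and count RNA rather than secreted dimers.

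**Figure D3:**
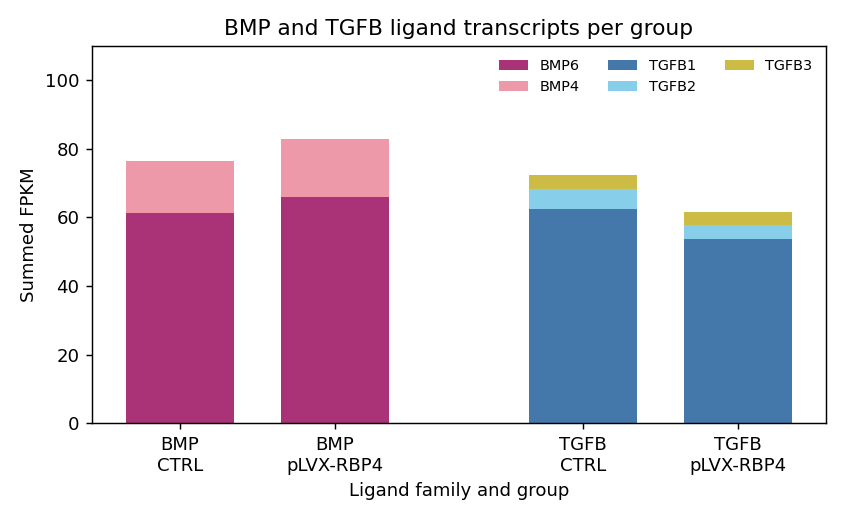
Summed FPKM of the BMP ligands (left pair of bars) and the TGFB ligands (right pair) in the CTRL and pLVX-*RBP4* groups, stacked by gene, with no error. The BMP bars reach 76.4 and 82.8 FPKM and the TGFB bars 72.3 and 61.7 FPKM, and *BMP6* and *TGFB1* fill most of each bar.

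Across 4 other scalings and 3 other added values, *FST*, *BMP4* and *BMP6* had positive differences and *TGFB1* and *TGFB2* negative ones, while *INHA* and *TGFB3* changed sign. The scalings moved the median of all genes by -0.079 to 0.071, so only genes with a small difference could change sign. The differences of *BMP6* ranged from 0.02 to 0.18 and those of *BMP4* from 0.06 to 0.22. Those of *FST* ranged from 0.17 to 0.33.

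**Figure D4:**
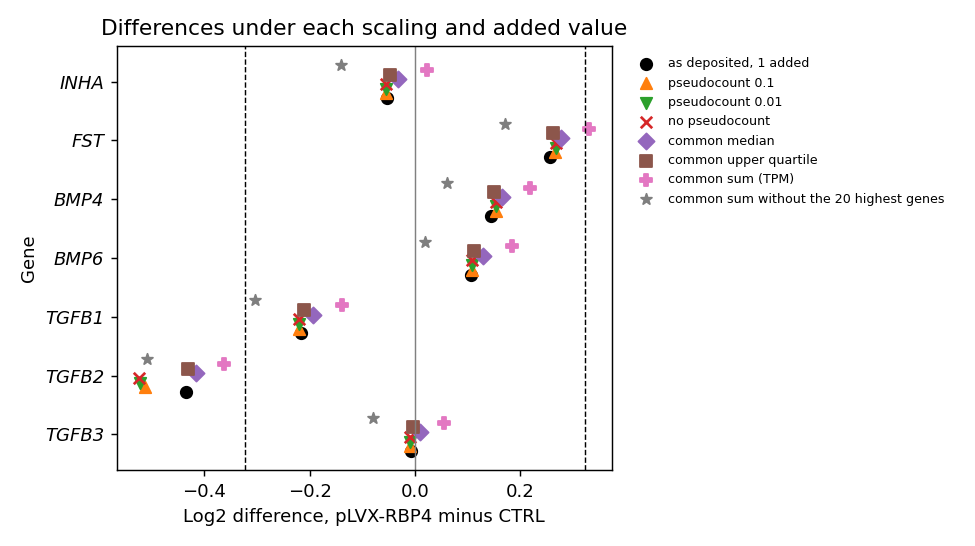
Log2 difference of each of the 7 genes, pLVX-*RBP4* minus CTRL, as deposited with 1 added and with each other added value and scaling (symbols). Dashed lines mark a difference of 0.32 either way. All symbols of *TGFB2* lie beyond the line on the left, from -0.52 to -0.36, and 1 symbol of *FST* lies beyond the line on the right, at 0.33.

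Markers of other cell types were measured beside these genes, since fibroblast-like cells and GCs can both make TGFB ligands and follistatin. Of 8 stromal genes, 7 were found, and 6 of them had higher values in pLVX-*RBP4* GCs, against 50.2% of all genes. *PDGFRA* was lower, at 12.6 and 11.2 FPKM. Among the 1092 genes with a mean of at least 100 FPKM, such as *DCN* and *TAGLN*, the median difference was 0.084. The sums of the 7 stromal genes were 3228 and 3492 FPKM, and none was listed at 0. *LUM*, a matrix proteoglycan, was the 1 gene past the limit (6.82 and 9.10 FPKM), against 12.4% of all genes. With a common sum without the 20 highest genes, *LUM* was at 0.29 and no stromal gene was past the limit, and with a common median or a common sum *DCN* passed too. *TAGLN*, an actin-binding protein, was the highest of them (1809 and 1891 FPKM). Of 6 theca genes, 4 were found, with sums of 12.3 and 11.8 FPKM, the nuclear receptor *NR2F2* at 10.1 and 9.74 FPKM, the Hedgehog receptor *PTCH1* at 1.93 and 1.66 FPKM, and *INSL3* listed at 0 in CTRL GCs and at 0.292 FPKM in pLVX-*RBP4* GCs. Of 7 endothelial genes, 2 were found, *PECAM1* (16.3 and 16.0 FPKM) and *KDR* (3.55 and 3.03 FPKM). Of 7 immune genes, 5 were found, with sums of 48.6 and 55.4 FPKM, of which *CD14* made up 42.9 and 48.9 FPKM. The lysozyme gene *LYZ* had 1.01 and 1.35 FPKM, and *PTPRC*, which marks blood cells in general, was below 1 FPKM in both groups. The part of these cells in the values of the 7 genes was not tested.

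Other ligands of the family were looked up by gene name, which 10489 of 17950 genes had. A gene that was not found may therefore still be present without a name. Of 23 listed genes, 5 were found and 3 passed the filter. None was past the limit of 0.32 in either direction, against 12.4% of all genes. *INHBE*, which encodes another activin beta subunit and is best known from liver, had 32.8 FPKM in CTRL GCs and 26.2 FPKM in pLVX-*RBP4* GCs. That level was above *INHA* in CTRL GCs and below it in pLVX-*RBP4* GCs. Its difference of -0.31 lay just inside the limit, and it passed the limit with a common sum without the 20 highest genes. *GDF9*, known as a signal of the oocyte, had 3.36 and 3.51 FPKM, near the level of *TGFB3*, while the germ cell gene *DDX4* was listed at 0 in CTRL GCs and had 0.067 FPKM in pLVX-*RBP4* GCs.

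Secreted antagonists and matrix partners showed differences of the same size. Of 21 genes, 10 were found and 5 passed the filter, and none was past the limit, against 12.4% of all genes. *NBL1*, a BMP antagonist of the DAN family, was far above both BMP genes, at 1014 FPKM in CTRL GCs and 951 FPKM in pLVX-*RBP4* GCs. The proteoglycan *DCN*, which binds TGFB, had 169 and 210 FPKM, a difference of 0.316 that lay just under the limit (0.322 to 3 digits) and passed it with a common median or a common sum. *CHRDL1*, another BMP antagonist, had 12.2 and 14.6 FPKM, a difference of 0.24 close to that of *FST*.

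Genes that process, store or release the ligands were listed next, and 25 of 27 were found, 19 of them past the filter. Across all genes 50.2% were higher in pLVX-*RBP4* GCs, and 12.4% were past the limit in either direction. In this list 14 of the 19 had a lower value in pLVX-*RBP4* GCs, with a median of -0.04, and 1 was past the limit. That gene, *MMP9*, a protease that can release latent TGFB, had 7.93 FPKM in CTRL GCs and was higher by 0.33 in pLVX-*RBP4* GCs, close to the limit. *THBS1*, an activator of latent TGFB, was the most abundant gene of the list, at 3959 and 3492 FPKM. *LTBP1* and *LTBP3*, which tether latent TGFB in the matrix, had 119.7 and 115.6 FPKM and 41.2 and 33.5 FPKM. The difference of *LTBP3* was -0.29 and that of *LTBP1* -0.05. Likeness of patterns between genes was not computed, since each gene has 1 value per group. With a common sum without the 20 highest genes, *MMP9* was at 0.25 and *LTBP3*, at -0.38, was the gene past the limit.

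The receptors were all below the levels of *BMP6* and *TGFB1*. Of 21 receptors and coreceptors, 19 were found and 17 passed the filter, of which 8 had higher and 9 lower values in pLVX-*RBP4* GCs. None of the 17 was past the limit, against 12.4% of all genes. *ACVR1*, a type I receptor used by BMPs, was the highest, at 44.2 and 39.1 FPKM. *ENG*, a coreceptor for TGFB, had the largest difference, at -0.29 (10.5 and 8.39 FPKM), and passed the limit with a common sum without the 20 highest genes, at -0.37. The count of 0 also depended on the added 1. With nothing added, 3 of the 17 receptor genes were past the limit, against 17.6% of all genes. They were the activin receptor *ACVR2B* at -0.38, *ENG* at -0.32 and the BMP coreceptor *RGMA* at 0.40. Receptors of TGFB were at moderate levels, with *TGFBR1* at 17.1 and 18.4 FPKM and *TGFBR2* at 11.7 and 12.3 FPKM.

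Among SMADs and their regulators, 15 of 20 genes were found and all 15 passed the filter, with a median difference of 0.05. *STRAP*, which encodes a partner of the TGFB receptors and SMAD7, was the 1 gene past the limit, against 12.4% of all genes. It had 63.4 FPKM in CTRL GCs and 81.9 FPKM in pLVX-*RBP4* GCs. *SMAD6*, an inhibitory SMAD, had the highest mean of the list, at 74.0 and 77.0 FPKM. *SMAD3*, which carries TGFB and activin signals, had 48.8 and 39.9 FPKM, a difference of -0.28, whereas *SMAD2* had 17.5 and 18.4 FPKM. With a common sum without the 20 highest genes, *STRAP* was at 0.28 and *SMAD3*, at -0.37, was the gene past the limit. That scaling put the median of all genes at -0.078, with 13.9% of them past the limit.

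Genes known to respond to these ligands were close to level. Of 23 listed, 16 were found and 15 passed the filter, with 7 higher and 8 lower values and a median of -0.02. None of the 15 was past the limit, against 12.4% of all genes. *CTGF*, listed under its newer name *CCN2*, had 3034 FPKM in CTRL GCs and 2896 FPKM in pLVX-*RBP4* GCs. *ID2*, a target of BMP signals, had 70.6 and 78.9 FPKM, a difference of 0.16. The FSH receptor gene *FSHR* had the largest difference of the list, at -0.21 (9.99 and 8.47 FPKM). These values were of the size seen in all genes, whose median absolute difference was 0.13.

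**Figure D5:**
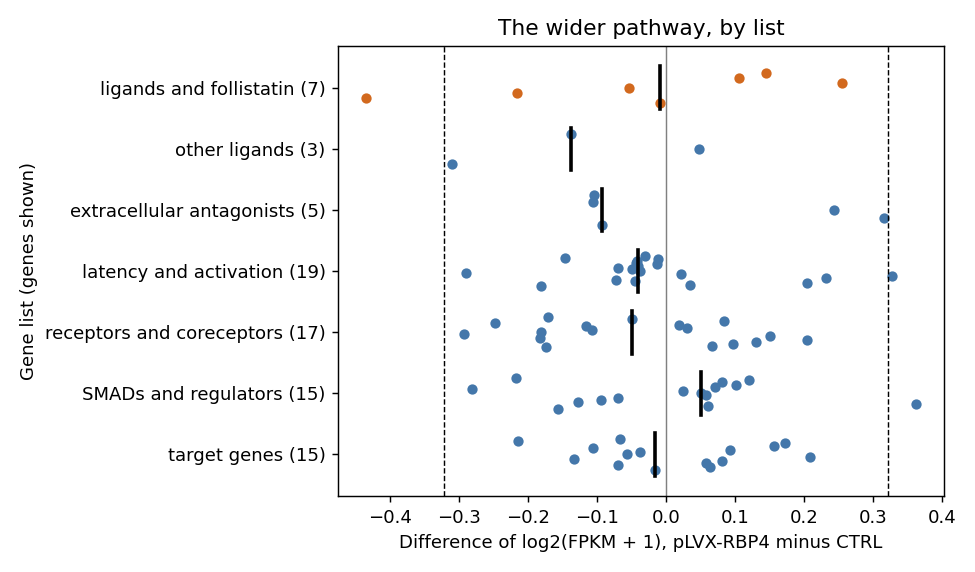
Difference of log2(FPKM + 1), pLVX-*RBP4* minus CTRL, for genes with a mean of at least 1 FPKM in the ligand list and 6 further lists (1 point a gene, black bars for medians, dashed lines at a difference of 0.32 either way). The points beyond a line are *TGFB2* on the left and *MMP9* and *STRAP* on the right, and the medians lie between -0.14 and 0.05.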

How the data were processed

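RNA of 6 libraries was sequenced, 3 from the pLVX-*RBP4* group and 3 from the CTRL group. According to the methods, the authors aligned paired-end reads to Sscrofa10.2 with TopHat2 and used Cuffdiff of Cufflinks, and the deposited FPKM values are theirs, 1 per gene and group. Versions and the annotation release are not given in the sources used here. Depth per library is not part of the table, and no counting error was computed. The way reads were divided between overlapping or similar genes is unknown too. Both value columns were used.

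Genes were matched by Ensembl gene name, which 10489 of 17950 genes had. No sequence or coordinates of the genes were used. Differences of log2(FPKM + 1) were computed, with a pseudocount of 1, for the 12382 genes with a mean of at least 1 FPKM. With 1 value per group, no test, standard deviation or p-value was computed, and the limit for a gene to be apart was 0.32 on this scale. Named genes were the members, *RBP4*, and from each other list the highest gene, the gene with the largest difference and any gene past the limit, except that 1 gene this rule names is not reported here. *DDX4*, *INSL3*, *PTPRC*, *PDGFRA*, *CHRDL1*, *LTBP1*, *LTBP3*, *TGFBR1*, *TGFBR2*, *ACVR2B*, *RGMA*, *SMAD2*, *SMAD3*, *CTGF*, *ID2* and the genes of the closing part were named after their values were seen. Members and lists were chosen with earlier results of these data known. Alternatives were pseudocounts of 0.1 and 0.01, other filters (none, or a mean of at least 5 FPKM), a common median, upper quartile or sum, a common sum without the 20 highest genes, a limit of 2-fold, and the mean of the list. The log2 ratio without a pseudocount, the list without *TGFB2*, ratios with 1 added and all ratios and sums other than the shares of the TGFB isoforms were chosen after seeing the data. A log2 value counted as moved at 0.1, and a count at more than 1.5 times. The log2 difference with nothing added and the scalings were checked on simulated data without noise. The filter and the limit were not checked in this way. Python 3.11.15, numpy 2.4.6, pandas 2.3.3 and matplotlib 3.10.9 were used.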

Additional observations from a re-analysis of the deposited data

How the results depend on the processing

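The number of the 7 genes past the limit of 0.32 was 1 with each added value, filter and scaling except a common sum, where it was 2 (*TGFB2* and *FST*) against 15.1% of all genes, and it was 0 at 2-fold. The median of the 7 genes and each gene's own difference moved by less than 0.1 under every alternative tried, although a common median gave 4 and a common sum gave 5 positive differences where the deposited values gave 3. The median of all genes was then 0.021 and 0.072, against 0.0014 as deposited. With 1 added to each value, the share of *TGFB2* in the TGFB sum was 9.24% (CTRL) and 7.96% (pLVX-*RBP4*), that of *TGFB3* 6.61% and 7.66%, and the ratio of *TGFB1* to *TGFB2* was 9.11 and 10.6. Of the values for the other lists, 19 moved and 207 did not. They were 14 counts that moved up, to at most 3 genes, 4 counts that moved down and 1 median. A count that did not move can hold another gene, as with *LTBP3* for *MMP9* and *SMAD3* for *STRAP*. No paired analysis was possible because the table holds 1 value per gene and group. For the same reason leaving out replicates was not run, and the ratios with *INHBA* and *INHBB* were not run because those genes were not analysed here.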

Other observations

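Several genes of the lists with a mean below 1 FPKM were listed at 0 in 1 or both groups. *MSTN*, a ligand known from muscle, had 0.046 FPKM in CTRL GCs and was listed at 0 in pLVX-*RBP4* GCs. The BMP antagonist *CHRDL2* had 0.320 FPKM in CTRL GCs and was likewise listed at 0 in the other. *ACVR1C*, a type I receptor, was listed at 0 in CTRL GCs and had 0.052 FPKM in pLVX-*RBP4* GCs. *CDKN1A*, a cell cycle inhibitor used by most cells, was listed at 0 in both groups.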
